A study of Mus musculus with 6 samples.

Results

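The genes described here encode the Src family of non-receptor tyrosine kinases and the enzymes that set the activity of these kinases. The 9 members were given by name, with earlier results of these data known: the kinases Src, Yes1, Fyn, Lyn, Fgr and Lck, the inhibitory kinase Csk, and the tyrosine phosphatases Ptpn1 and Ptpra. All 9 were found among the 23284 genes of the count tables, and all 9 were among the 12453 genes with enough reads to be tested. The question was how much of each of these transcripts the livers held, and whether any of them differed between livers expressing wild-type FXR and livers expressing an FXR that cannot be phosphorylated at tyrosine 67.

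FXR, encoded by Nr1h4, is the nuclear receptor for bile acids. All 6 male mice carried a floxed FXR gene, and at 8 weeks of age they received AAV8 vectors by tail vein. In each mouse 1 vector carried Cre recombinase behind the hepatocyte-directed TBG promoter, and a second one behind the same promoter carried FXR-WT (3 mice, the FXR-WT group) or FXR with phenylalanine in place of tyrosine 67 (3 mice, the Y67F-FXR group). Cholic acid chow (0.5%) was given for 6 h before the livers were taken, 4 weeks after injection. All groups therefore shared the Cre vector and the bile acid diet, and no liver without them was compared. Other liver cells kept their own FXR gene, since the promoter is active in hepatocytes.

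Src family kinases are anchored at the inner face of the plasma membrane, where they pass signals from growth factor receptors, integrins and immune receptors to proteins phosphorylated on tyrosine. Each is held inactive when Csk phosphorylates a tyrosine near its carboxyl end, which then folds back onto the kinase's own SH2 domain. Phosphatases such as Ptpra and Ptpn1 can remove that phosphate, and the kinase becomes fully active when a tyrosine of its activation loop is phosphorylated. Src, Yes1 and Fyn are expressed in most tissues, whereas Fgr, Lck and Blk are known mainly from blood cells, and Lyn from blood cells and also from epithelia.

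The coding sequences around both regulatory tyrosines are shown because they are the sites on which Csk, Ptpn1 and Ptpra act or that mark the active kinase, and because they show how alike the kinases are that the sequencing had to tell apart. They were read from the GENCODE vM21 transcripts of GRCm38, 30 coding bases for each site, in the sense strand, 5′ to 3′, with the tyrosine codon in capitals. The family kinase Blk is given with the 6 member kinases. At the inhibitory tail site the sequences were as follows.
Src tail: actgagccacagTACcagcccggggagaac
Yes1 tail: acagagccacagTACcaaccaggagaaaat
Fyn tail: acagagccccagTATcagcccggtgaaaac
Fgr tail: acagaaccacagTACcagcctggagaccag
Lyn tail: acagaagggcagTATcagcagcaaccgtag
Lck tail: acagagggccagTACcagccccagccttga
Blk tail: acggagggccaaTATgagctgcagccctag

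The tail codon of Src is codon 535 of 541, and that of Lyn is codon 508 of 512. Codons are counted in the transcript chosen for each gene, so another splice form can number them differently. Which forms these livers expressed was not examined. The stop codon lies within the last bases printed for Lyn, Lck and Blk, and beyond them for Src, Yes1, Fyn and Fgr. In the tail, 10 of 30 positions held the same base in all 7 kinases, and pairs of kinases differed at between 5 and 18 positions. Around the activation loop tyrosine, codon 424 in Src and codon 397 in Lyn, the sequences were as follows.
Src loop: gaagacaacgaaTACacagcccggcaaggt
Yes1 loop: gaagacaatgaaTACacggcaagacaaggt
Fyn loop: gaagacaatgaaTACacagcaagacaaggt
Lyn loop: gaagataacgagTACacagcaagggaaggt
Lck loop: gaggacaatgagTACacggcccgggagggg
Fgr loop: gaggacaatgagTATaacccccaacaagga
Blk loop: attgacagtgaaTACactgcccaagagggg

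The loop was the more alike of the sites across these kinases, with 12 of 30 positions the same in all 7. Yes1 and Fyn differed there at 1 position, whereas Lyn and Blk differed at 14. Over their whole coding sequences the kinases were from 61% to 72.1% identical, with Src and Fgr the closest pair. The longest run of bases that any 2 of these transcripts shared was 23 bases, which is shorter than the 100-base reads. Reads could therefore be told apart between the kinases. Other genes were a different matter for 3 members: 13.6% of the 100-base windows of Lyn, 9.76% of those of Yes1 and 0.342% of those of Ptpra also occurred in the transcript of another gene, Gm11787 or Gm26857 for Lyn, Gm10461 for Yes1 and 4930473A02Rik for Ptpra. Whether the shared windows lie at a single place in the genome or at several was not checked. Reads that align to several places were not counted, so the levels of Lyn and Yes1 may be somewhat low if several places hold these windows. Src, Fyn, Fgr, Lck, Csk and Ptpn1 had 0 such windows.

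Each library held between 19551113 and 22053320 reads on genes, and levels are given as CPM, counts per 1000000 reads with the library totals scaled by TMM factors. Hepatocyte markers summed to 92400 to 114000 CPM, more than the markers of any other cell type examined. Alb had a mean of 71600 CPM, so the tissue matched its label. Nr1h4 had 186 ± 30.2 CPM in FXR-WT and 175 ± 9.84 CPM in Y67F-FXR livers (SD, n = 3 each), a log2 fold change of -0.09 (edgeR adjusted p = 0.861). Its reads could come from the mouse gene or from the FXR transgene, whose species was not determined here. They check the presence of FXR transcripts and not the mutation, and the part of the transgene in them is not known. Differences between groups were tested with edgeR's quasi-likelihood method, p was adjusted over all 12453 genes after Benjamini and Hochberg, and a call required both an adjusted p under 0.05 and more than 1.5-fold difference. By this rule 121 genes (0.972%) were called between Y67F-FXR and FXR-WT, 53 lower and 68 higher. That count was 66, 50 and 9 without FXR-WT replicates 1, 2 and 3, and 36, 60 and 26 without Y67F-FXR replicates 1, 2 and 3. With library totals as the scaling it was 68 lower and 52 higher.

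Within the set, Csk had by far the highest level, Lyn had the most transcript of the 6 Src family kinases among the members, and Src itself was among the lowest. Levels of different genes were compared as CPM per kb of exons. Csk, the kinase that phosphorylates the inhibitory tail, had 34 ± 2.06 CPM per kb (SD, n = 6 livers). This level exceeded that of 85.6% of the genes tested. Ptpra, a receptor-type phosphatase, followed with 7.19 ± 0.594 CPM per kb, then Lyn with 6.56 ± 0.863 CPM per kb and Ptpn1, a phosphatase of the endoplasmic reticulum membrane also known for acting on the insulin receptor, with 5.52 ± 0.428 CPM per kb. Ptpra was above Lyn in 5 of 6 livers and Lyn above Ptpn1 in 5 of 6, and the ranges of these neighbours overlapped. By contrast, Csk was above Ptpra and Ptpn1 above Yes1 in all 6 livers, with no overlap.

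The remaining kinases lay lower. Yes1 had 2.44 ± 0.87 CPM per kb and Fyn had 1.98 ± 0.27 CPM per kb, and with Yes1 the higher in 3 of 6 livers their order was not resolved. Fgr had 0.735 ± 0.234 CPM per kb and Src 0.645 ± 0.145 CPM per kb, and Fgr was the higher in 4 of 6 livers. Fyn was above Fgr in all 6 livers, with no overlap. Src exceeded only 15.1% of the genes tested. Lck, the kinase of T cells, had the lowest level of the 9 members, 0.424 ± 0.309 CPM per kb, which exceeded 9.87% of the genes tested. Of the relatives outside the members, Frk, Blk, Srms and Ptk6 were at 0.43, 0.198, 0.179 and 0.144 CPM per kb. Ptk6 had 0 reads in Y67F-FXR replicate 2, which allows up to 0.164 CPM there (3 counts, counting error only) if reads are independent. Both reads of a pair were counted, so such limits and counting errors can be too small.

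**Figure D1:**
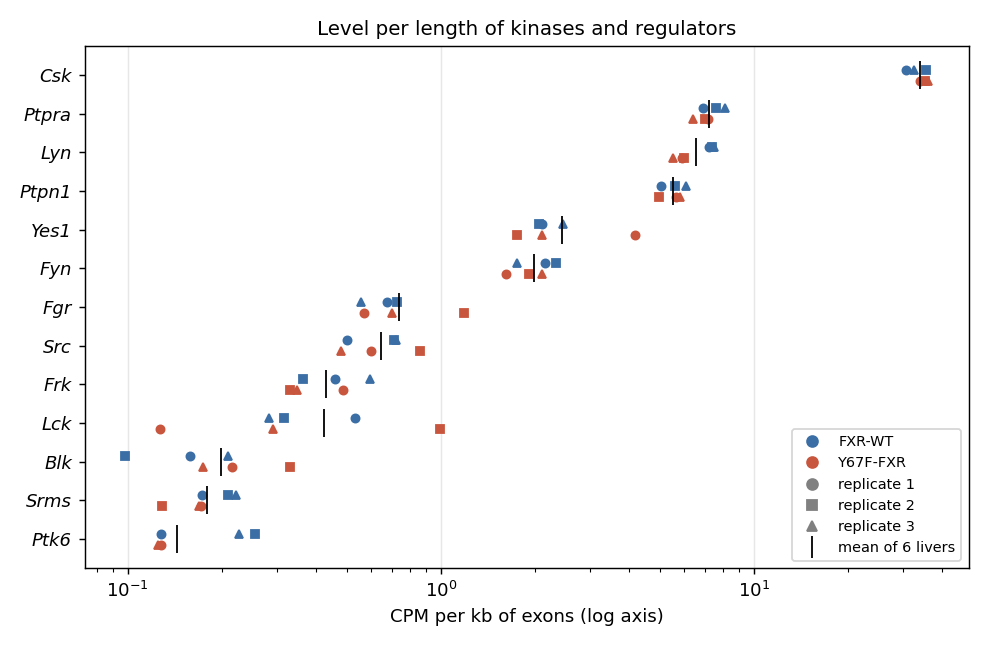
Level of each kinase and regulator as CPM per kb of exons on a log axis, 1 point per liver, coloured by group and shaped by replicate, with a black tick at the mean of the 6 livers. Csk stands alone at a mean of 34, Ptpra, Lyn and Ptpn1 lie between 5.52 and 7.19, and Src is at 0.645. Ptk6 in Y67F-FXR replicate 2, at 0 reads, is not drawn.

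The 6 member kinases and Blk together summed to between 11.4 and 13.6 CPM per kb in the 6 livers. Of this sum Lyn made up the largest share in every liver, between 44.6% and 55.5%. Yes1 made up from 13.5% to 31.6% and Fyn from 12.3% to 18.5%. Src accounted for between 3.77% and 6.58% of it, and Lyn transcripts exceeded those of Src by 6.99 to 14.3 times per length. Csk alone was 2.29 to 3.18 times the sum of these 7 kinases and 41 to 75.4 times Src. Ptpra exceeded Ptpn1 by 1.11 to 1.41 times. In bulk liver, fewer cells of a type and less RNA per cell cannot be told apart, so these shares describe the tissue and not the hepatocyte. Transcript levels also say nothing of the amount or activity of the proteins.

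**Figure D2:**
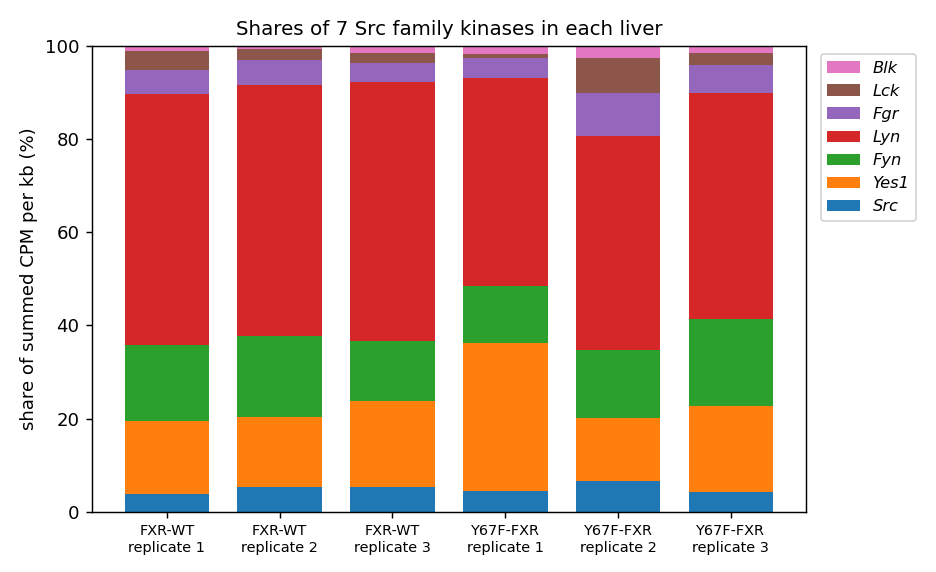
Share (%) of each of 7 Src family kinases in their summed CPM per kb, 1 stacked bar per liver. Lyn is the largest segment in all 6 livers (44.6% to 55.5%), Src stays between 3.77% and 6.58%, and Yes1 reaches 31.6% in Y67F-FXR replicate 1.

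None of the 9 members was called between Y67F-FXR and FXR-WT, against 0.972% of all genes tested. The fitted level was higher in Y67F-FXR for 4 members and lower for 5. Their median log2 fold change was -0.01, beside 0.01 over all genes tested. Their edgeR adjusted p ranged from 0.227 to 0.996. At an unadjusted p under 0.05 there was 1 of 9 members (Lyn), beside 13.4% of all genes. DESeq2 also called none of the 9. The 95% intervals excluded a 1.5-fold difference in either direction for 4 members (Fyn, Csk, Ptpn1 and Ptpra) and a 2-fold difference for 7, whereas those of Src, Yes1, Lyn, Fgr and Lck reached 1.5-fold on at least 1 side.

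**Figure D3:**
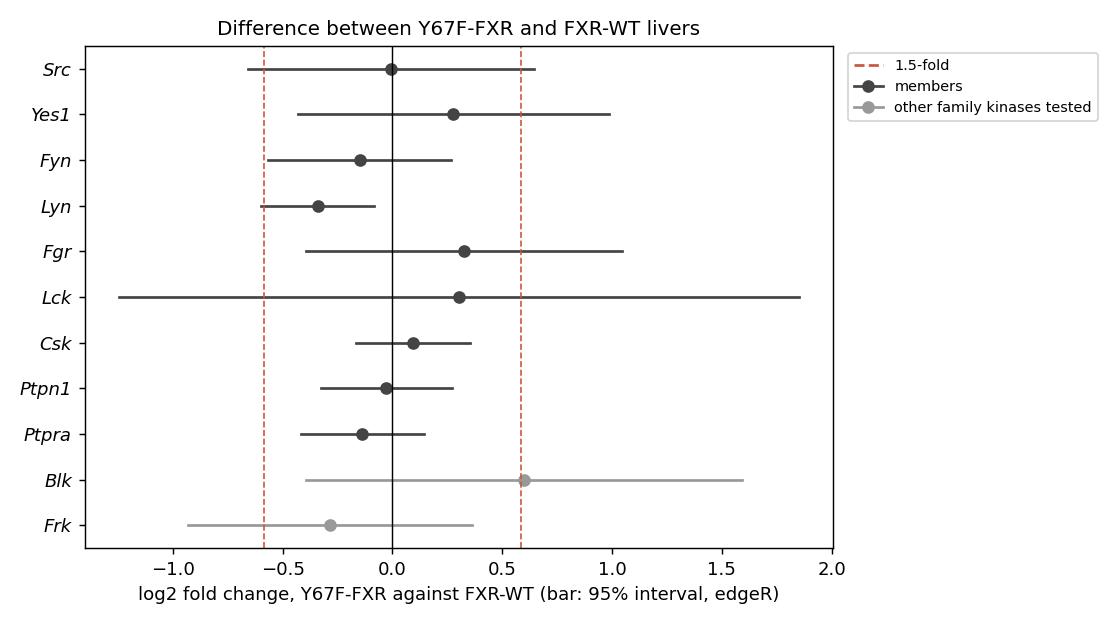
Log2 fold change of Y67F-FXR against FXR-WT livers (points) with 95% intervals (bars) from edgeR for the 9 members and, in grey, the other family kinases tested. The dashed lines mark 1.5-fold in either direction. The interval of Lyn lies below 0, and those of Csk, Ptpn1, Ptpra and Fyn lie within the dashed lines.

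Src is the founding member of the family (chr2:157250029-157297574 of mm9, plus strand, with 3887 bp of exons). It had 1.96, 2.76 and 2.81 CPM in FXR-WT replicates 1 to 3 and 2.33, 3.33 and 1.86 CPM in Y67F-FXR replicates 1 to 3, on 39 to 65 reads per liver. The highest and the lowest Src level both lay in Y67F-FXR, around all 3 FXR-WT livers. Both group means were 2.51 CPM (SD 0.480 and 0.748, n = 3 each), and the log2 fold change was -0.01 (standard error 0.282, edgeR adjusted p = 0.996). Its interval ran from 0.633-fold to 1.56-fold, so differences within that range were not resolved with these livers. The sign of the Src value turned with RLE or DESeq2 scaling and when any of 4 single livers was left out.

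Lyn (chr4:3605268-3718759 of mm9, plus strand, with 3456 bp of exons) was the member with the smallest p. Its level was 24.9, 25.4 and 25.8 CPM in FXR-WT replicates 1 to 3 and 20.3, 20.7 and 19.0 CPM in Y67F-FXR replicates 1 to 3. Every Y67F-FXR liver lay below every FXR-WT liver, and the livers of each group were close together. The means were 25.3 ± 0.435 CPM and 20.0 ± 0.856 CPM (SD, n = 3 each), a log2 fold change of -0.34 (standard error 0.111), or 0.789-fold with an interval from 0.661-fold to 0.943-fold. In edgeR's quasi-likelihood test the unadjusted p was 0.0152 and the adjusted p 0.227, so the Lyn difference did not pass the test across all genes, and its size was below the 1.5-fold minimum. It was the only member whose groups did not overlap, and 20.6% of all genes tested shared that property. Lyn was lower in Y67F-FXR under all 13 alternatives, with log2 fold changes from -0.41 to -0.30 and adjusted p from 0.156 to 0.614.

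As a share of the 7 kinases per length, Lyn stood at 54.5% ± 0.854 in FXR-WT and at 46.4% ± 1.95 in Y67F-FXR (SD, n = 3 each), with 54% the lowest FXR-WT value and 48.5% the highest Y67F-FXR value. The ratio of Csk to Lyn per length was 4.25, 4.82 and 4.38 in FXR-WT replicates 1 to 3 and 5.79, 5.86 and 6.55 in Y67F-FXR replicates 1 to 3, which did not overlap either. Both measures contain the Lyn values above and are given as descriptions, without a test. With 3 livers per group, the smallest two-sided p of an exact permutation test is 0.1.

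Yes1 (chr5:32913544-32989439, plus strand) acts broadly across tissues, and its tail sequence differed from that of Src at 6 of 30 positions, where Fyn differed at 5. Its level was 9.68, 9.50 and 11.3 CPM in FXR-WT replicates 1 to 3 and 19.1, 8.07 and 9.74 CPM in Y67F-FXR replicates 1 to 3. The single high liver was Y67F-FXR replicate 1, and the other Y67F-FXR livers were within or just below the FXR-WT range. The log2 fold change was 0.28 (standard error 0.307, edgeR adjusted p = 0.777), and without Y67F-FXR replicate 1 it was -0.19. In that liver the fifth of all genes with the longest exons had a median deviation of 0.19 from the mean of the livers on the log2 scale. The fifth with the shortest had -0.20. Yes1, with 4608 bp, has the longest exons of the 9 members, and its own deviation in that liver was 0.82. Ptpn1, next with 4213 bp, deviated there by 0.03 and Src, with 3887 bp, by -0.07. With offsets for gene length the Yes1 value was 0.22, and the part of length in it beyond this was not tested.

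Fyn (chr10:39089605-39285180, plus strand), known for signalling in T cells and the nervous system and expressed widely, had 7.97, 8.63 and 6.44 CPM in FXR-WT replicates 1 to 3 and 5.98, 7.04 and 7.73 CPM in Y67F-FXR replicates 1 to 3. The groups overlapped. Fyn had a log2 fold change of -0.15 (standard error 0.180, edgeR adjusted p = 0.800).

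**Figure D4:**
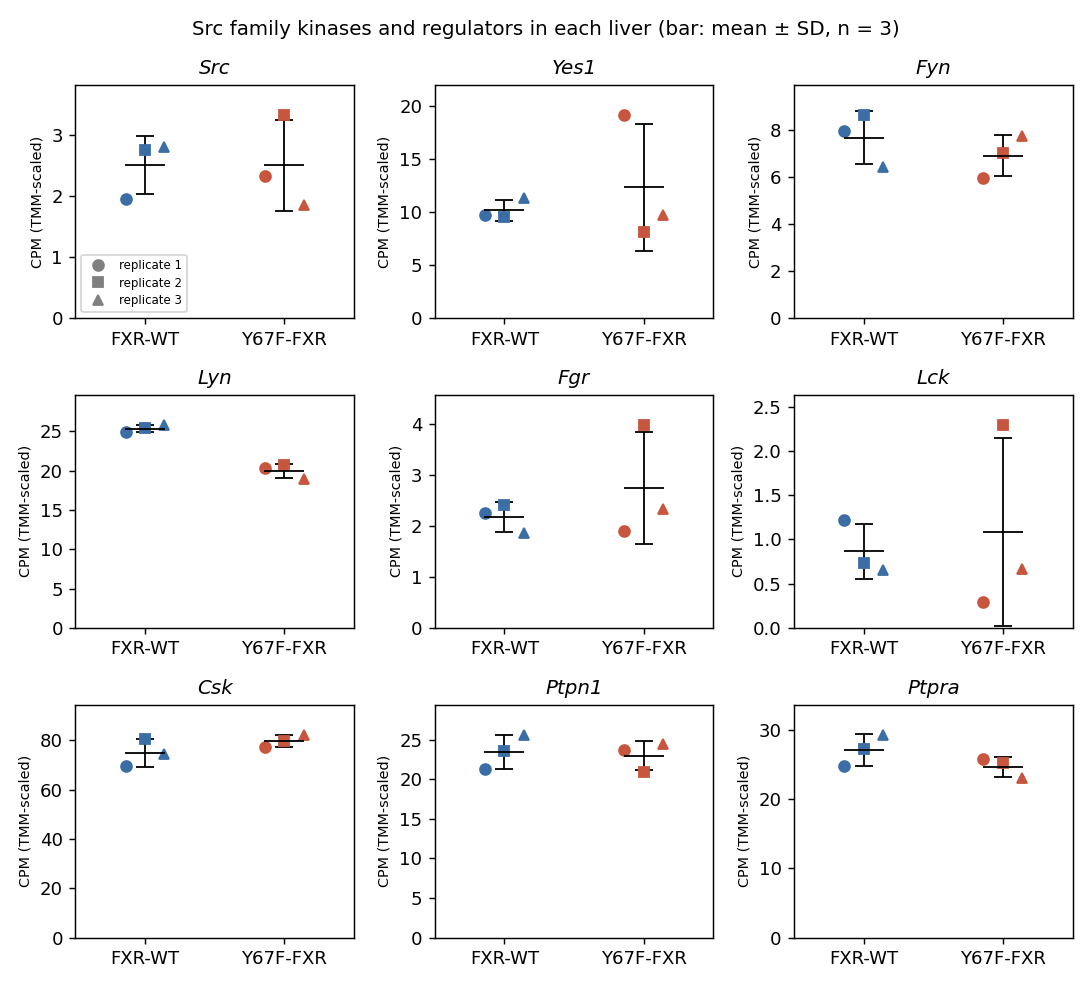
CPM (TMM-scaled, axis from 0) of the 9 members in each liver, 3 livers per group, with the mean and SD as bars and the replicate number as the symbol. The groups of Lyn do not overlap (24.9 to 25.8 against 19.0 to 20.7), whereas Yes1, Fgr and Lck each have 1 Y67F-FXR liver far above the others of that group.

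Csk (chr9:57474453-57492987, minus strand) had 69.6, 80.7 and 74.3 CPM in FXR-WT replicates 1 to 3 and 77.4, 79.8 and 82.2 CPM in Y67F-FXR replicates 1 to 3. The ranges overlapped, and the spread was small, 7.45% of the mean in FXR-WT and 2.96% in Y67F-FXR. The log2 fold change of 0.09 (standard error 0.113, edgeR adjusted p = 0.803) had an interval from 0.891-fold to 1.28-fold.

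Ptpn1 (chr2:167757827-167804885, plus strand) had 21.3, 23.6 and 25.6 CPM in FXR-WT replicates 1 to 3 and 23.7, 20.9 and 24.4 CPM in Y67F-FXR replicates 1 to 3, ranges that nearly coincide. Its log2 fold change was -0.03 (standard error 0.129, edgeR adjusted p = 0.964). Ptpra (chr2:130276014-130380036, plus strand) had 24.8, 27.3 and 29.3 CPM in FXR-WT replicates 1 to 3 and 25.8, 25.3 and 23.1 CPM in Y67F-FXR replicates 1 to 3. The lowest FXR-WT liver was below 2 of the Y67F-FXR livers, so these groups overlapped too. Its log2 fold change was -0.14 (standard error 0.121, edgeR adjusted p = 0.711). Ptpra shares 288 exon bases with the annotated gene 4930473A02Rik, and reads on both were not counted.

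Lck and Fgr varied widely between the livers of the Y67F-FXR group. Lck (chr4:129225588-129250885, minus strand) had 1.22, 0.727 and 0.648 CPM in FXR-WT replicates 1 to 3 and 0.292, 2.29 and 0.668 CPM in Y67F-FXR replicates 1 to 3. The lowest and the highest liver were both in Y67F-FXR, on 6 and 42 reads. Its SD was 98.0% of the mean in Y67F-FXR, where counting error alone would give 22% if reads were independent. The log2 fold change was 0.30 (standard error 0.672, edgeR adjusted p = 0.912) and became -0.84 without Y67F-FXR replicate 2.

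Fgr (chr4:132530010-132557797, plus strand), a kinase of neutrophils, monocytes and macrophages, had 2.25, 2.42 and 1.86 CPM in FXR-WT replicates 1 to 3 and 1.90, 3.98 and 2.34 CPM in Y67F-FXR replicates 1 to 3. Replicate 2 of Y67F-FXR was again the highest. The log2 fold change was 0.33 (standard error 0.311, edgeR adjusted p = 0.734), and without that liver it was -0.05. Fgr, Lck and Blk together made up 6.91% of the summed transcripts of the 7 kinases per length in Y67F-FXR replicate 1 and 19.3% in Y67F-FXR replicate 2, with the FXR-WT livers between 7.8% and 10.2%.

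Marker genes of blood cells were summed in the same livers. The 8 Kupffer cell and macrophage markers, led by Clec4f, summed to between 151 and 219 CPM in FXR-WT and between 123 and 332 CPM in Y67F-FXR, lowest in Y67F-FXR replicate 1 and highest in Y67F-FXR replicate 2. The 5 B cell markers, led by Cd79b, ranged from 5.83 to 8.02 CPM in FXR-WT and from 4.62 to 10.5 CPM in Y67F-FXR, with the same livers at the ends. For T and NK cells the 10 markers summed to 16.2 to 26.4 CPM in FXR-WT and 18.6 to 34.2 CPM in Y67F-FXR, lowest in FXR-WT replicate 3 and highest in Y67F-FXR replicate 2, and 8 of the 10 were under 1 CPM. Zap70, at 17.6 CPM, supplied most of this sum. Without it the other 9 summed to 2.09 CPM in Y67F-FXR replicate 1 and 11.6 CPM in Y67F-FXR replicate 2, against 2.72 to 5.43 CPM in FXR-WT.

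Relative to its mean over the 6 livers, Y67F-FXR replicate 2 had 2.35 times Lck, 1.62 times Fgr and 1.33 times Src, beside 1.65 times the Kupffer cell and macrophage sum. Lyn in that liver was at 0.912 and the hepatocyte sum at 1.13. The neutrophil sum did not follow this order: with 6 of 7 markers found and S100a9 the most abundant, it was 3.97 to 7.22 CPM in FXR-WT and 2.05 to 2.95 CPM in Y67F-FXR, the same direction as Lyn and with no overlap, as for 20.6% of all genes tested. Of these 6 markers 4 were under 1 CPM and S100a9 had a mean of 1.74 CPM, so the neutrophil sum rests on few reads. No marker of any list was called by edgeR with TMM factors and filterByExpr. At an unadjusted p under 0.05 there were 3 neutrophil markers, which are all of that list that could be tested, 1 endothelial and 2 stellate cell markers, against 13.4% of all genes. The neutrophil markers S100a8 and S100a9 and the stellate cell marker Lrat, of which S100a8 and Lrat are named after their values were seen, were called under some alternatives. With edgeR and TMM factors their log2 fold changes were -2.73, -1.95 and -1.15, in that order. DESeq2 called Lrat and S100a9, gene length offsets called all 3, no filter called Lrat and S100a8, RLE factors called Lrat, and library totals called S100a8. The part of blood cells in the values of Lck, Fgr and Lyn was not tested.

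**Figure D5:**
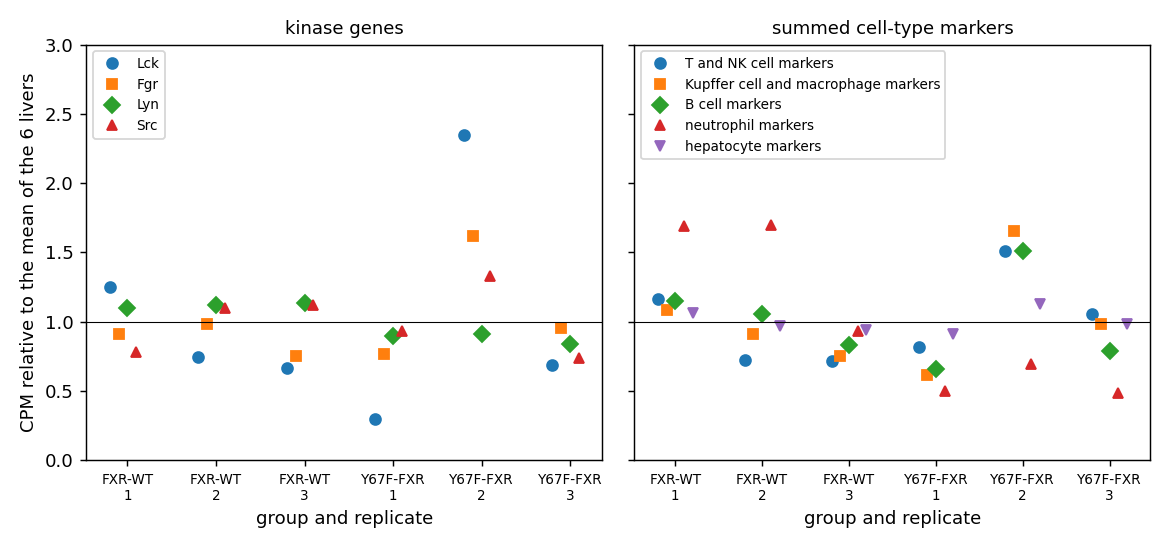
CPM relative to the mean of the 6 livers for 4 kinase genes (left) and for summed cell-type markers (right), 1 symbol per liver, side-shifted so that they do not hide each other. In Y67F-FXR replicate 2 Lck and Fgr reach 2.35 and 1.62 and the Kupffer cell and macrophage sum 1.65, whereas Lyn and the neutrophil sum are below 1 in all Y67F-FXR livers.

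The endothelial sum was 169 to 197 CPM in FXR-WT and 173 to 182 CPM in Y67F-FXR (most abundant gene Clec4g), and the cholangiocyte sum 9.51 to 13.9 and 12 to 12.2 CPM (Sox9). Stellate cell markers, led by Dcn, summed to 201 to 209 CPM in FXR-WT and to 142 to 206 CPM in Y67F-FXR, with the low value in Y67F-FXR replicate 2. Dcn, at a mean of 126 CPM, supplied most of this sum. Erythrocyte markers summed to 80.1 to 89.3 and 86.5 to 114 CPM, nearly all of it Alas2, while Hba-a1 and Hbb-b1 are listed at 0 in all 6 livers.

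Genes that act with these kinases were examined in 6 lists of 45 genes, of which 41 had enough reads to be tested. None of the 41 was called by edgeR or by DESeq2, beside 0.972% of all genes by edgeR. At an unadjusted p under 0.05 there were 3 higher and 3 lower, against 13.4% of all genes, and the median log2 fold change was -0.09. The groups of 8 of the 41 did not overlap, against 20.6% of all genes.

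Of 4 further kinases related to the members, 2 could be tested. Blk, a kinase of B cells, had 0.384 ± 0.138 CPM in FXR-WT and 0.594 ± 0.201 CPM in Y67F-FXR (SD, n = 3 each), a log2 fold change of 0.60 (edgeR adjusted p = 0.638). Frk, an epithelial relative, had a log2 fold change of -0.28 (edgeR adjusted p = 0.745). Ptk6 and Srms, more distant relatives, were too low to test, with 0.465 and 0.512 CPM in FXR-WT and 0.193 and 0.398 CPM in Y67F-FXR.

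Of the Csk homologue and the adaptors that bring Csk to membranes or signalling complexes, 4 of 5 were tested, with log2 fold changes from -0.26 to 0.20 and intervals that reached 1.5-fold for 3 of them. Pag1, a membrane adaptor that binds Csk in lipid rafts, had a log2 fold change of -0.26 (edgeR adjusted p = 0.742), and Lime1, a related adaptor, 0.20 (edgeR adjusted p = 0.684). The Csk homologue Matk was too low to be tested. Of the 7 other phosphatases, all tested, Ptpn6, a cytosolic phosphatase best known from blood cells, had the smallest p, with a log2 fold change of 0.16 (edgeR adjusted p = 0.669). Ptpn2, the nearest relative of Ptpn1, had -0.19 (edgeR adjusted p = 0.680).

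Cbl proteins are ubiquitin ligases that mark active tyrosine kinases and receptors for breakdown. Cblc had 16.6, 19.4 and 19.0 CPM in FXR-WT replicates 1 to 3 and 21.1, 30.9 and 23.9 CPM in Y67F-FXR replicates 1 to 3. Its log2 fold change was 0.46 (unadjusted p = 0.0236, edgeR adjusted p = 0.270), with groups that did not overlap. For Cblb the value was 0.44 (edgeR adjusted p = 0.557), also without overlap, and Cbl itself was too low to test.

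Of 15 substrates and adaptors, all tested, 2 were higher and 2 lower at an unadjusted p under 0.05, against 13.4% of all genes. The higher ones, named after their values were seen, were Gab1, a docking protein of growth factor receptors, with a log2 fold change of 0.39 (edgeR adjusted p = 0.285), and Pxn, the focal adhesion protein paxillin, with 0.28 (edgeR adjusted p = 0.338). Shc1, an adaptor that Src family kinases and receptors phosphorylate to engage the Ras pathway, had 48.5, 47.2 and 50.9 CPM in FXR-WT replicates 1 to 3 and 38.4, 30.9 and 33.7 CPM in Y67F-FXR replicates 1 to 3. All Y67F-FXR livers were below all FXR-WT livers. For Shc1 the log2 fold change was -0.51 (standard error 0.125, unadjusted p = 0.00361, edgeR adjusted p = 0.124). Nedd9, a docking protein of focal adhesions, had 5.18, 4.61 and 4.28 CPM in FXR-WT replicates 1 to 3 and 2.96, 2.95 and 2.34 CPM in Y67F-FXR replicates 1 to 3. This log2 fold change was -0.77 (standard error 0.196, edgeR adjusted p = 0.135), without overlap.

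Of 11 receptors upstream of the family, all tested, Fgfr4, the hepatocyte receptor for FGF15 and FGF19, had the smallest p, with 48.4 ± 8.62 CPM in FXR-WT and 35.6 ± 3.99 CPM in Y67F-FXR (SD, n = 3 each). This was a log2 fold change of -0.44 (unadjusted p = 0.0251, edgeR adjusted p = 0.278). Insr, the insulin receptor, had 79.8 ± 11.7 CPM in FXR-WT and 97.6 ± 16.2 CPM in Y67F-FXR (SD, n = 3 each), a log2 fold change of 0.29 (edgeR adjusted p = 0.523).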

How the data were processed

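Liver RNA of 6 mice was sequenced, 1 library per mouse (FXR-WT and Y67F-FXR, n = 3 each, from the labels). The authors aligned paired-end 100-base reads with STAR (2.5.3a in the submitters' processing notes, where Trimmomatic 0.36, FastQC 0.11.5 and bcl2fastq 2.17.1.14 are also named) and, per the file headers, used featureCounts 1.4.6-p4 on mm9 genes to count them, without strand and with each read of a pair counted singly. The deposited values are counts per gene, not normalized. A further deposited table of the authors' own comparison (log fold change, mean CPM, p-value, false discovery rate) was not used.

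The analysis used edgeR 4.0.16 in R 4.3.3: filterByExpr, TMM factors, and the quasi-likelihood test of Y67F-FXR against FXR-WT without pairing, adjusted by Benjamini-Hochberg over all genes tested. Standard errors come from the F statistic and intervals are 95%. CPM per kb is TMM-scaled CPM over the exon length in the count files, mm9. The common biological coefficient of variation was 0.194. Each pair of livers of a group differed by more than counting noise (the median over genes of the chi-square was 2.21 to 7.84), and all 6 were kept. The p-values measure the spread between single livers. The fit was tested on simulated counts. DESeq2 1.42.0 was an alternative, with RLE factors, library totals, other filters, offsets for gene length (loess, span 0.3), the replicate number as a block, each liver left out and no fold minimum. Coding sequences were taken from GENCODE vM21 (GRCm38) and aligned with Biopython 1.88, and the figures were drawn with matplotlib 3.10.9. No coordinate was converted between builds.

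The members and lists were chosen with earlier results of these data known. The genes named are the members, the other family kinases (1 is not reported here), the 2 genes with the smallest p of each other list and any called, Nr1h4, and of each marker list the most abundant gene and those at 0. Genes outside this rule (Gab1, Pxn, S100a8, Lrat, Alk and Jak2) were named after their values were seen, and Matk and Cbl as list genes too low to test. The markers Tf and Ly6g were not found under these symbols.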

Additional observations from a re-analysis of the deposited data

How the results depend on the processing

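Of the 9 members, 0 were called under each of 13 alternatives, also with no fold minimum. Of 116 log2 fold changes of members under these alternatives, 105 kept their direction and 11 had the other sign, and the lowest adjusted p was 0.156, for Lyn with gene length offsets. The Lck value is missing under the filter of more than 1 CPM in 3 libraries, which Lck did not pass. The log2 fold change of Src became 0.0003 with RLE size factors and 0.0006 with DESeq2. With each liver left out it ranged from -0.27 to 0.18 for Src, -0.19 to 0.50 for Yes1, -0.048 to 0.53 for Fgr, -0.84 to 0.76 for Lck and -0.10 to 0.039 for Ptpn1. The sign turned for Yes1 without Y67F-FXR replicate 1, and for Fgr and Lck without Y67F-FXR replicate 2. Scaling by library totals moved the levels per length by less than 1 SD, from 34 to 33.9 CPM per kb for Csk and from 0.424 to 0.416 for Lck. Dropping a single liver cannot shift such a mean by 1 SD, whatever the values. Those runs therefore could not test the levels.

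Over all genes, 121 were called as reported, 431 with DESeq2, 245 with gene length offsets, and from 9 to 66 with each liver left out, lowest without FXR-WT replicate 3. The cause was not tested. With the replicate number as a block, 8 genes were called and the lowest adjusted p of a member was 0.614. The numbers are not said to pair mice, and the deviations of same-numbered livers correlated at -0.52, -0.08 and 0.12. Deviations of 3 livers from their group mean depend on each other. These values therefore cannot show whether same-numbered livers share more than a number. At this depth counting errors were largest for Lck, Src and Fgr, at 13.6% or more of the mean if reads are taken as independent.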

Other observations

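The levels of 3 other tyrosine kinase genes were looked up after the values of the members had been seen, for a scale beside Src. Alk, a neuronal receptor kinase, had 0 reads in all 6 livers, which allows from 0.13 to 0.164 CPM (3 counts per library, counting error only) if the reads of a pair are taken as independent, and more if they are not. Jak2, the kinase of the growth hormone and other cytokine receptors, had 9.80 ± 2.76 CPM in FXR-WT and 8.48 ± 2.53 CPM in Y67F-FXR livers (SD, n = 3 each), or 1.82 CPM per kb over the 6 livers, with a log2 fold change of -0.21 (edgeR adjusted p = 0.836). Insr was at 9.48 CPM per kb, beside 6.56 CPM per kb for Lyn and 0.645 CPM per kb for Src.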
